A study of Mus musculus with 6 samples.

Results

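GIRK channels are potassium channels that G proteins open directly, and their subunits are encoded by Kcnj3 (GIRK1), Kcnj6 (GIRK2), Kcnj9 (GIRK3) and Kcnj5 (GIRK4). These are 4 of the 18193 genes read by a probe set of their own. All probe sets annotated to exactly 1 of the 4 gene symbols were taken, 15 of the 45037 tested, 4 for Kcnj3, 2 for Kcnj5, 5 for Kcnj6 and 4 for Kcnj9. They were read in RNA from the brain without its cerebellum of 3 Gb5-deficient mice (Gb5ko, replicates 1 to 3) and 3 wild-type mice (Gb5wt, replicates 4 to 6), 1 Affymetrix array per sample. The samples are biological replicates from littermates of like age and sex, per the labels. The sources used here do not give the age, the strain, the sex of each animal or how the Gnb5 allele was made. Levels are log2 values, differences are Gb5ko minus Gb5wt on the log2 scale with the standard error of the fit, and calls are limma adjusted p values under 0.05 over all probe sets. Whole brain tissue mixes many cell types, so fewer cells of a type and less RNA per cell cannot be told apart.

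When a receptor activates a Gi or Go protein, the released beta-gamma dimer binds the GIRK channel, potassium leaves the cell and the neuron is quieted. Channels assemble as tetramers. GIRK2 can form channels alone, GIRK1 needs a partner to reach the cell surface, GIRK3 joins the others and alters their trafficking, and GIRK4 pairs with GIRK1 in the atrium of the heart. Gb5, the product of Gnb5, is a distant relative of the other beta subunits. It binds R7 RGS proteins in place of gamma subunits, and these complexes speed the closing of GIRK channels when the receptor signal ends. The comparison asks whether brain transcripts of the channel subunits differ when Gb5 is missing.

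The targeted gene was read by 2 probe sets, and both were lower in every Gb5ko array. The brighter one, 1422208_a_at, read 3.67, 3.00 and 3.56 in Gb5ko brains, against 8.79, 8.98 and 9.30 in Gb5wt brains. There Gnb5 fell by 5.62 ± 0.193 (SE), with a limma adjusted p of 4.48e-06. The dimmer one, 1447630_x_at, read 3.83, 3.63 and 3.63 in Gb5ko brains, against 4.90, 4.95 and 4.20 in Gb5wt brains. Its difference of -0.98 ± 0.19 (SE) did not pass (limma adjusted p = 0.173). Over all probe sets, which are no replicates, Pearson correlations were at least 0.994 between arrays of a group and at least 0.989 between arrays of different groups.

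None of the 4 subunit genes had a probe set that passed the test. The count was 0 of 15, while 0.0266% of all probe sets passed, 12 of 45037. Adjusted p values of the 15 ran from 0.275 to 0.897 in limma. At an unadjusted limma p under 0.05 the count was 3 of 15, 2 higher and 1 lower in Gb5ko brains. Of all probe sets 14.4% reached that level, 8.09% higher and 6.33% lower, so the share of the family lies near the background. The count was 1 without knockout replicate 1, wild-type replicate 5 or wild-type replicate 6, and 4 without wild-type replicate 4. Groups did not overlap at 2 of the 15 probe sets, 1 in each direction, against 21.5% of all probe sets, 12.5% higher and 8.95% lower. The median difference of the 15 was 0.06, against 0.03 over all probe sets, with 8 positive and 7 negative. The intervals bound differences in signal. Of the 15 probe sets, 11 lay below the median level of all probe sets. Low signals can hide a change, so those intervals may not bound the transcript. In 14 of the 15 the 95% interval lay within a 2-fold change in either direction, and in 12 it lay within 1.5-fold. The exception to the 2-fold bound, 1450712_at of Kcnj9, had an interval from -0.08 to 1.06.

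**Figure D1:**
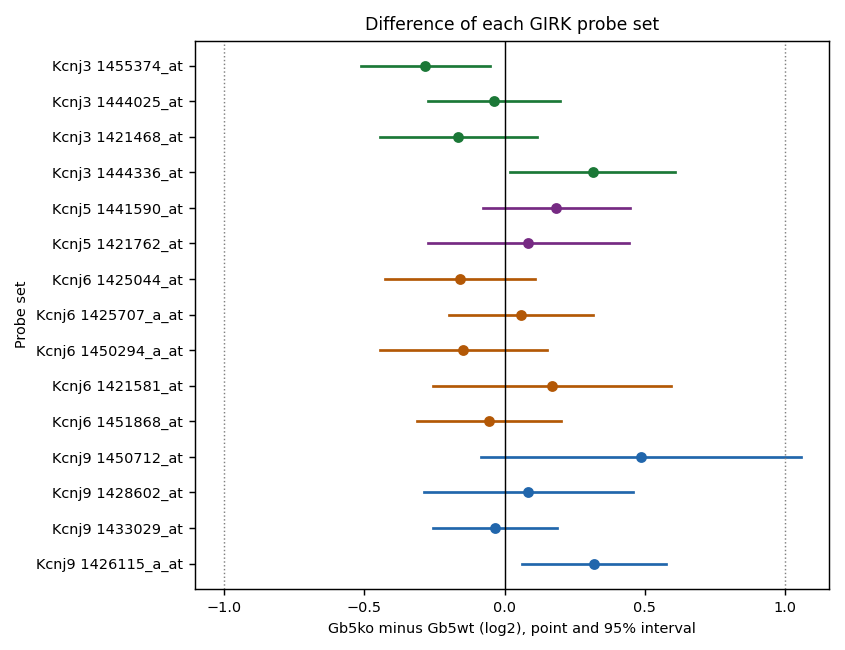
Difference Gb5ko minus Gb5wt (log2, horizontal axis) of each of the 15 GIRK probe sets (vertical axis), with the point at the estimate and the line spanning the 95% interval of the limma fit. Dotted lines mark 2-fold changes. Estimates run from -0.28 to 0.49, and of the lines only that of Kcnj9 1450712_at passes a dotted line.

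Subunit signals spanned most of the range of the arrays. A probe set's signal depends on how well its probes bind as well as on the amount of transcript, so the order below is an order of signals and not of transcript numbers, and percentiles place each probe set among all 45037. In Gb5ko brains the brightest probe set of each gene averaged 10.47 for Kcnj3 (percentile 91.6), 9.67 for Kcnj9 (86.4), 5.64 for Kcnj5 (48.1) and 4.62 for Kcnj6 (36.5). In Gb5wt brains the same probe sets averaged 10.75 for Kcnj3 (percentile 93.2), 9.19 for Kcnj9 (82.9), 5.46 for Kcnj5 (46.3) and 4.78 for Kcnj6 (38.6). The order was the same in both genotypes, and the ranges of neighbours in it did not overlap in either. Of the 15 probe sets, 4 lay above the median level of 5.83, 2 of Kcnj3 and 2 of Kcnj9. All 5 probe sets of Kcnj6 and both of Kcnj5 lay below it. For scale, the brighter Gnb5 probe set averaged 3.41 in Gb5ko brains, and the 8 heart and muscle markers averaged 4.66 to 4.91 per array in Gb5ko brains and 4.51 to 4.60 in Gb5wt brains. Single markers of that list were spread widely, from 3.55 to 7.07 in Gb5ko brains and from 3.51 to 6.61 in Gb5wt brains. Detection calls were not used here, so the data do not say whether a dim probe set reads any transcript.

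**Figure D2:**
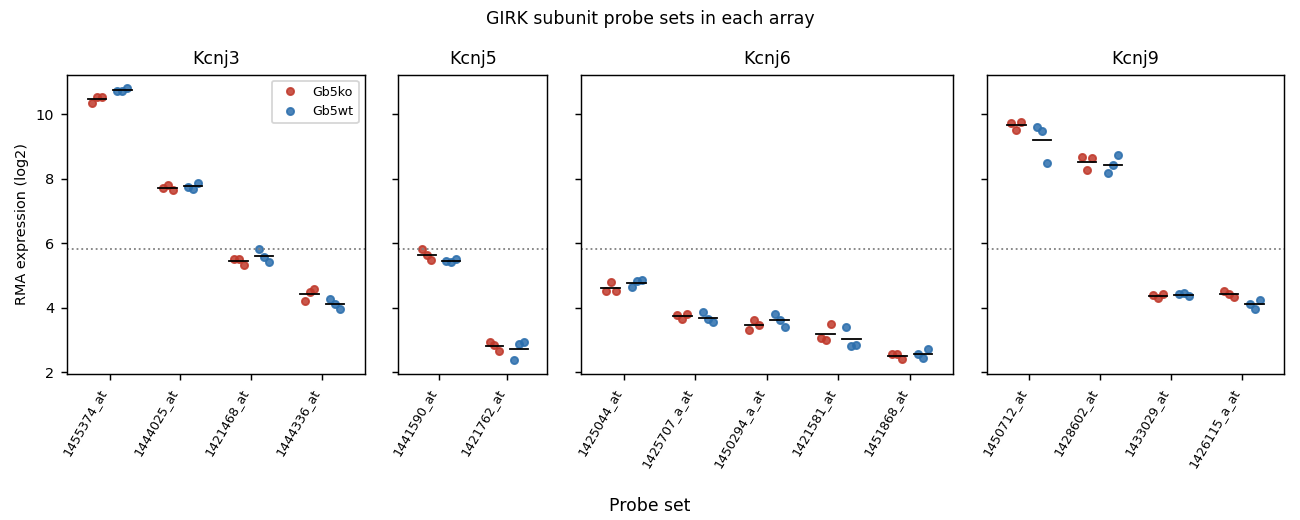
RMA expression (log2, vertical axis) of the 15 probe sets of Kcnj3, Kcnj5, Kcnj6 and Kcnj9 (horizontal axis), with Gb5ko arrays in red left of Gb5wt arrays in blue. Points are single arrays, short bars are group means (n = 3 each), and the dotted line is the median level of all probe sets, 5.83, above which 2 probe sets of Kcnj3 and 2 of Kcnj9 lie.

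Kcnj3 and Kcnj9 carried all the bright probe sets and the probe sets whose groups did not overlap, so the windows around their annotated starts are shown, 250 bases before to 50 after the start, from RefSeq on GRCm38.p6. Capitals mark every match, on either strand, to 5 motifs. They were the TATA box, searched as TATAAA, the CCAAT box, the E-box in the form CACGTG, the start of the cyclic AMP response element, searched as TGACG, and the GC box, searched as GGGCGG. No match overlapped another in these windows.
Kcnj3, chr2:55435720-55436019, plus strand: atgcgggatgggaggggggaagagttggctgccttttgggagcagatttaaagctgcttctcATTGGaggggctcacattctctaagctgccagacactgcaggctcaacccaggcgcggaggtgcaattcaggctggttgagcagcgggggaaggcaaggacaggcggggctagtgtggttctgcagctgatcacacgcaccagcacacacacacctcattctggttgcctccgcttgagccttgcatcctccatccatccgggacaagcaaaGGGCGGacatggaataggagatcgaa
Kcnj9, chr1:172329273-172329572, minus strand: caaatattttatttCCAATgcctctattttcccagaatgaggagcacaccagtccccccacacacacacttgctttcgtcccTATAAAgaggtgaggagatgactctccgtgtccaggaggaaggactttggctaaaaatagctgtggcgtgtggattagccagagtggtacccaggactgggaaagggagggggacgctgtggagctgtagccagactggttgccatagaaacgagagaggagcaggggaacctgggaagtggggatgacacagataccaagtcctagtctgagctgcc
The Kcnj3 window held 1 match to the CCAAT box letters, on the opposite strand, and 1 to the GC box letters. The Kcnj9 window held 1 match to the CCAAT box letters and 1 to the TATA box letters. Of 32851 such windows, 37.4% held the CCAAT box letters, 35.7% the GC box, 20.8% the start of the cyclic AMP response element, 13.6% the TATA box and 7.15% the E-box. Matches were counted wherever they fell in the window and are a description only. The windows were 57.7% G or C for Kcnj3 and 52.3% for Kcnj9, against a median of 52.7%. Windows were listed for all 4 genes, 1 each for Kcnj3, Kcnj5 and Kcnj9 and 2 for Kcnj6, one of whose windows had the most CG dinucleotides, 30, against 5 for Kcnj9, 10 for Kcnj3 and a median of 7.

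Kcnj3 encodes GIRK1, the subunit that enhances the response to beta-gamma but forms no channel at the surface by itself. Its brightest probe set, 1455374_at, read 10.34, 10.54 and 10.52 in Gb5ko brains, against 10.73, 10.72 and 10.81 in Gb5wt brains. Each Gb5ko array lay below each Gb5wt array. The difference of -0.28 ± 0.102 (SE) had a limma adjusted p of 0.279 and did not pass, and its 95% interval ran from -0.51 to -0.05. With each array left out in turn, it lay between -0.32 and -0.22. The difference was negative in 3 of the 4 Kcnj3 probe sets, but the groups overlapped in all except 1455374_at. The second brightest, 1444025_at, read 7.72, 7.81 and 7.64 in Gb5ko brains and 7.74, 7.68 and 7.87 in Gb5wt brains, and its interval from -0.27 to 0.20 included 0. The probe set 1421468_at read 5.50, 5.50 and 5.34 in Gb5ko brains and 5.82, 5.58 and 5.43 in Gb5wt brains. Its difference was -0.16 (95% interval -0.44 to 0.12). The groups overlapped in both.

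The dimmest Kcnj3 probe set ran the other way. It was 1444336_at, at 4.22, 4.48 and 4.59 in Gb5ko brains, against 4.27, 4.11 and 3.97 in Gb5wt brains. Its difference was 0.31 ± 0.13 (SE) with a limma adjusted p of 0.322, and the lowest Gb5ko array lay within the Gb5wt range. Within each array, 1455374_at minus 1444336_at was 6.12, 6.06 and 5.93 in Gb5ko brains and 6.46, 6.60 and 6.84 in Gb5wt brains. These groups did not overlap (exact permutation p = 0.1, two-sided, the smallest that 3 against 3 arrays can give). Averaged over its 4 probe sets, Kcnj3 differed by -0.04 (exact permutation p = 0.6). The transcripts of Kcnj3 that each probe set reads are not stated in these sources.

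Kcnj9 encodes GIRK3, a subunit found mainly in the brain that carries a sorting signal and joins channels of other subunits. Its brightest probe set, 1450712_at, read 9.73, 9.52 and 9.76 in Gb5ko brains, against 9.59, 9.46 and 8.50 in Gb5wt brains. The difference was 0.49 ± 0.252 (SE), the largest of the family, with a limma adjusted p of 0.404. Wild-type replicate 6 set most of it, since the other arrays lay between 9.46 and 9.76, and without that array the difference was 0.14 (limma adjusted p = 0.69). On the next probe set, 1428602_at, the same array was the highest of the 6. There Gb5ko brains read 8.68, 8.26 and 8.63 and Gb5wt brains 8.18, 8.42 and 8.72, a difference of 0.08 (95% interval -0.29 to 0.46). The gap between these 2 probe sets within an array was 1.05, 1.27 and 1.12 in Gb5ko brains and 1.41, 1.04 and -0.22 in Gb5wt brains, and wild-type replicate 6 was the only array in which 1450712_at read below 1428602_at.

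Of the dim Kcnj9 probe sets, 1426115_a_at did not overlap between the groups. It read 4.52, 4.42 and 4.33 in Gb5ko brains, against 4.11, 3.96 and 4.25 in Gb5wt brains, a difference of 0.32 ± 0.113 (SE) with a limma adjusted p of 0.275. It lay at percentile 34.2 in Gb5ko brains and 30.2 in Gb5wt brains. The last, 1433029_at, read 4.39, 4.30 and 4.43 in Gb5ko brains and 4.41, 4.46 and 4.35 in Gb5wt brains, with an interval from -0.25 to 0.19. The mean over the 4 Kcnj9 probe sets was 6.83, 6.63 and 6.79 in Gb5ko brains, against 6.57, 6.58 and 6.46 in Gb5wt brains. Each Gb5ko array lay above each Gb5wt array, and the difference was 0.21 (exact permutation p = 0.1, two-sided, the smallest possible here). Without wild-type replicate 6 it was 0.17.

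Kcnj6 encodes GIRK2, the subunit of most neuronal GIRK channels and the gene mutated in the weaver mouse. Its brightest probe set, 1425044_at, read 4.52, 4.81 and 4.53 in Gb5ko brains, against 4.65, 4.82 and 4.86 in Gb5wt brains. The groups overlapped, and the difference of -0.16 ± 0.118 (SE) had a limma adjusted p of 0.56. Without knockout replicate 2 it was -0.25. The other 4 probe sets averaged 2.52 to 3.75 in Gb5ko brains and 2.57 to 3.69 in Gb5wt brains, at or below percentile 24.7 in either group. Their differences ran from -0.15 to 0.17, 2 of them positive and 2 negative, and each interval included 0. Of these, 1421581_at varied most within the groups, at 3.07, 3.01 and 3.51 in Gb5ko brains and 3.41, 2.82 and 2.84 in Gb5wt brains. Signals this low can hide a change, so for Kcnj6 the array gives little beyond the interval of its brightest probe set, -0.43 to 0.11. Kcnj6 is strongly expressed in midbrain dopamine neurons, a small part of this tissue. Markers of those neurons averaged 7.07 to 7.30 per array in Gb5ko brains and 6.91 to 7.11 in Gb5wt brains, 10 of 12 with a positive difference and 0 passing. Their part in the Kcnj6 values was not tested.

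Kcnj5 encodes GIRK4, the partner of GIRK1 in the atrial channel, with restricted expression in the brain. Its brighter probe set, 1441590_at, read 5.83, 5.62 and 5.48 in Gb5ko brains, against 5.44, 5.43 and 5.51 in Gb5wt brains. Knockout replicates 1 and 2 lay above the Gb5wt range and replicate 3 within it. The difference was 0.18 ± 0.116 (SE) with a limma adjusted p of 0.484, and without knockout replicate 1 it was 0.089. The dimmer one, 1421762_at, read 2.94, 2.84 and 2.66 in Gb5ko brains and 2.38, 2.88 and 2.93 in Gb5wt brains, at percentile 7.16 in Gb5ko brains and 5.83 in Gb5wt brains. Kcnj5 is on chromosome 9, as is Gnb5, while Kcnj3 is on chromosome 2, Kcnj6 on 16 and Kcnj9 on 1. In the gene order of GRCm38.p6, 1031 of the 2487 annotated genes of chromosome 9 lie between Kcnj5 and Gnb5. Kcnj5 is abundant in the heart, and the list of 8 heart and muscle markers also holds genes of skeletal muscle. All 8 had a positive difference, with a median of 0.19 against 0.05 over all genes. Most of the 8 were dim, below the median level of all probe sets. The smallest p was that of Tnnt2, at 0.60 ± 0.126 (limma adjusted p = 0.187). Of the 8, 0 passed, and the part of such RNA in the Kcnj5 values was not tested.

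Probe sets of 1 GIRK gene mostly did not follow one another from array to array. Over the 6 arrays, the 23 pairs of probe sets within a gene had Pearson correlations from -0.83 to 0.87 with a median of 0.09, and 12 of the 23 were above 0. These are descriptions over arrays of both genotypes, and no like value over all genes is given beside them. Of the 15 GIRK probe sets, 11 were dim, below the median level of all probe sets. The median SD of a GIRK probe set within a group was 0.145. Of the 23 pairs, 4 had within-array differences that did not overlap between the genotypes, 3 of Kcnj3 and 1 of Kcnj9. Over all genes, 20.8% of the pairs of probe sets within a gene did so, so the count lies near the background.

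Because subunits assemble with one another, pairs of genes were also compared within each array, which cancels any shift common to both. All 6 pairs were computed on the brightest probe sets, and none could reach a p under 0.1 in the exact permutation test. Groups did not overlap in 3 of the 6, which share 4 genes, against 22.9% of all pairs of genes. The p values given were not adjusted over the 6 pairs. Kcnj3 minus Kcnj9 was 0.61, 1.02 and 0.76 in Gb5ko brains, against 1.14, 1.25 and 2.31 in Gb5wt brains. The means differed by -0.77 (exact permutation p = 0.1, two-sided). Wild-type replicate 6 again decided the size, and without it the difference was -0.40.

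Kcnj3 minus Kcnj5 was 4.51, 4.92 and 5.04 in Gb5ko brains, against 5.29, 5.29 and 5.30 in Gb5wt brains, a difference of -0.47 (exact permutation p = 0.1). The Gb5wt arrays were nearly equal and each Gb5ko array lay below them. Without knockout replicate 1 the difference was -0.31. Kcnj5 minus Kcnj6 was 1.31, 0.81 and 0.94 in Gb5ko brains, against 0.79, 0.61 and 0.65 in Gb5wt brains, a difference of 0.34 (exact permutation p = 0.1). Its lowest Gb5ko array and highest Gb5wt array were 0.81 and 0.79, and without knockout replicate 1 the difference was 0.20. The other 3 pairs overlapped between the genotypes. Read over all probe sets of each gene in place of the brightest, Kcnj3 minus Kcnj9 differed by -0.26, Kcnj3 minus Kcnj5 by -0.18 and Kcnj5 minus Kcnj6 by 0.16. Read so, the groups overlapped in each of these pairs. Both the size of each difference and the separation of the groups therefore depended on the probe sets chosen.

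**Figure D3:**
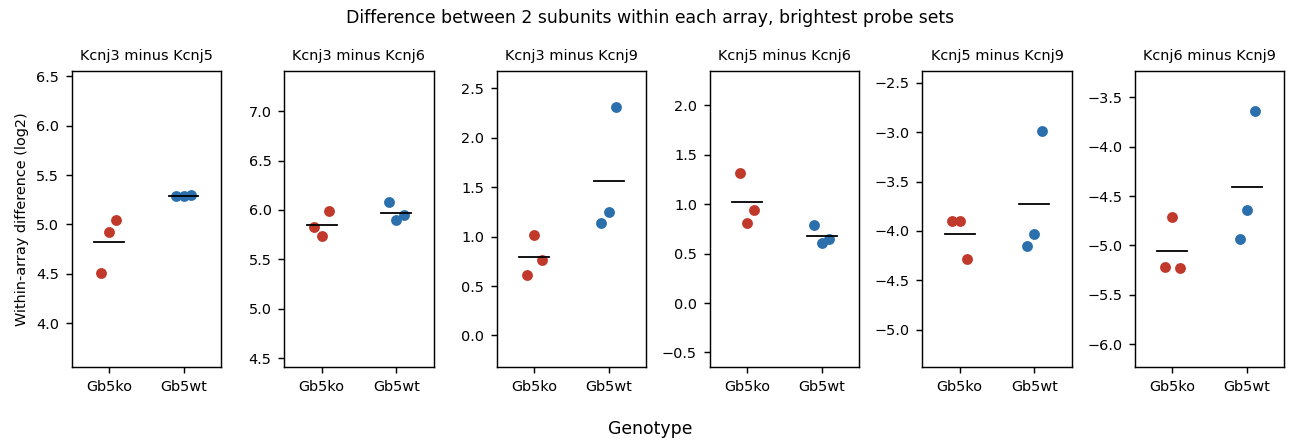
Within-array difference between the brightest probe sets of 2 GIRK subunits (log2, vertical axis, each panel spanning the same height) in Gb5ko arrays, left, and Gb5wt arrays, right. Points are arrays and bars are group means. Groups do not overlap for Kcnj3 minus Kcnj5, Kcnj3 minus Kcnj9 and Kcnj5 minus Kcnj6, and the highest Gb5wt point of Kcnj3 minus Kcnj9, 2.31, is wild-type replicate 6.

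Of the genes around the channel, only the targeted one was called. In 5 lists, 68 genes were read, each through its brightest probe set, 57 of the signalling pathway in 4 lists and 11 other inward rectifiers. The call was Gnb5, 1 of 68, while 0.022% of all 18193 genes passed. At an unadjusted limma p under 0.05 there were 11 of the 57, of which 8 were higher and 3 lower in Gb5ko brains, and 1 of the 11. Of all genes 15.6% reached that level, 9.89% higher and 5.68% lower. Among the 57, 22 genes had groups that did not overlap, 13 higher and 9 lower, Gnb5 among the lower, against 25.1% of all genes, 16.1% higher and 9.01% lower. The median difference of the 57 was 0.06, against 0.05 over all genes.

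Of 23 listed Gi and Go coupled receptors that open GIRK channels, 18 had a probe set of their own and 0 passed, with a median of 0.03. The smallest p belonged to the somatostatin receptor Sstr3, at 8.86, 8.29 and 8.35 in Gb5ko brains, against 7.87, 7.76 and 8.26 in Gb5wt brains (0.54 ± 0.183, limma adjusted p = 0.267). The groups of Sstr3 did not overlap, as at 6 other receptors, 3 higher and 3 lower in Gb5ko brains. Over all genes 25.1% did not overlap, 16.1% higher and 9.01% lower. The dopamine receptor Drd2 differed by 0.35, the adrenergic receptor Adra2c by 0.31 and the cannabinoid receptor Cnr1 by -0.34, with limma adjusted p values from 0.297 to 0.338. Neither the GABA-B subunit Gabbr1 nor the serotonin receptor Htr1a, both well-known openers of GIRK channels, had an interval that excluded 0 (Gabbr1 -0.39 to 0.07, Htr1a -0.39 to 0.09). The groups of Gabbr1 did not overlap, with each Gb5ko array lower, while those of Htr1a overlapped. Both are named here after their values were seen.

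The G protein subunits that carry the signal to the channel gave 0 calls in 12 genes and 0 at an unadjusted limma p under 0.05. Gnai1 differed by -0.22, Gnao1 by 0.16, Gnb2 by 0.32 and Gng3 by 0.17, with limma adjusted p values from 0.37 to 0.529. Regulators that close the channel gave 1 call in 14 genes, Gnb5 itself. With Gnb5 left out, the median of the other 13 was 0.16. Groups did not overlap at 7 of the 14, 5 higher and 2 lower in Gb5ko brains, Gnb5 among the lower. Over all genes 25.1% did so, 16.1% higher and 9.01% lower. The smallest p after Gnb5 belonged to the R7 members Rgs6, at 0.48 ± 0.139, and Rgs9, at 0.30 ± 0.11, and the R4 member Rgs8, at 0.30 ± 0.112, none of which passed (limma adjusted p = 0.234, 0.281 and 0.283). Next came Rgs17, which ran the other way at -0.24 ± 0.102 (limma adjusted p = 0.326). It stands outside the rule on named genes and was added after its value was seen.

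Trafficking and signalling partners gave 0 calls in 13 genes. Gprin1, a neurite outgrowth protein that binds activated Go, differed by 0.48 ± 0.148 and the postsynaptic scaffold Dlg4 (PSD-95) by 0.36 ± 0.122, with limma adjusted p values of 0.251 and 0.269. The related scaffold Dlg1 differed by -0.22 and the lipid kinase Pip5k1c, which makes the phosphoinositide that GIRK channels need to open, by 0.22. Of the 11 other inward rectifiers 0 passed, with a median of 0.07. The choroid plexus channel Kcnj13 differed by -0.32 ± 0.126 (limma adjusted p = 0.307), and Kcnj1, Kcnj4 and Kcnj16 by 0.15, 0.24 and 0.14. The differences of the GIRK subunits, from -0.28 to 0.49 on their brightest probe sets, lay among those of the rest of the Kcnj family, from -0.32 to 0.24, except for Kcnj9.

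**Figure D4:**
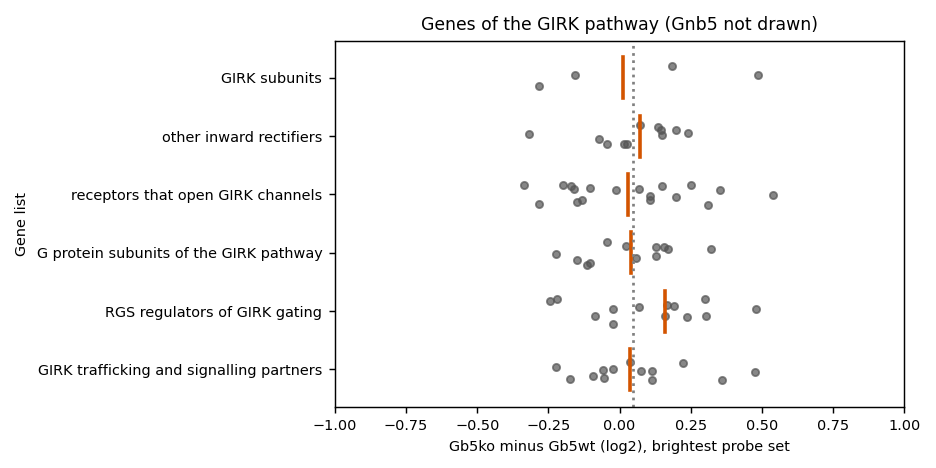
Difference Gb5ko minus Gb5wt (log2, horizontal axis) of each gene, read through its brightest probe set, in 6 lists (vertical axis), with Gnb5 at -5.62 left off. Points are genes, orange bars are list medians and the dotted line is the median of all genes, 0.05. All points drawn lie between -0.34 and 0.54.

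In the lists of markers of other cells and regions, 0 genes passed. Pan-neuronal markers averaged 12.05 to 12.07 per array in Gb5ko brains and 12.04 to 12.08 in Gb5wt brains, 6 of 12 positive, with Snap25 at -0.33 ± 0.105 (limma adjusted p = 0.255). Markers of the cerebellum, which expresses GIRK subunits and was removed, averaged 6.78 to 7.11 in Gb5ko brains and 6.75 to 6.93 in Gb5wt brains, 11 of 15 positive and 0 passing. The smallest p belonged to the Purkinje cell transporter Slc1a6, at 0.53 ± 0.137, and the transcription factor Zic1, at -0.31 ± 0.122 (limma adjusted p = 0.216 and 0.305), followed by Cbln1 at 0.31 and Cbln3 at 0.42. Some of the list were bright, Zic1 at a mean of 10.20 in Gb5ko brains and 10.50 in Gb5wt brains. Others were dim, Cbln3 at a mean of 4.53 in Gb5ko brains and 4.11 in Gb5wt brains. With the cerebellar mean as a covariate, Kcnj3 1455374_at differed by -0.24 and Kcnj9 1450712_at by 0.48.

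Forebrain excitatory markers averaged 10.39 to 10.43 in Gb5ko brains and 10.33 to 10.38 in Gb5wt brains, and thalamic markers 8.71 to 8.81 in Gb5ko brains and 8.65 to 8.76 in Gb5wt brains. Of these lists 0 of 11 and 0 of 10 passed. Glial and vascular markers averaged 9.93 to 10.02 in Gb5ko brains and 9.96 to 10.06 in Gb5wt brains, with 0 of 14 passing. At an unadjusted limma p under 0.05 there were 6 of the 14, 4 higher and 2 lower, against 15.6% of all genes. The collagen gene Col3a1 differed by -0.37 and the myelin gene Cldn11 by -0.59, while the microglial genes Aif1 and Csf1r differed by 0.35 and 0.30, with limma adjusted p values from 0.216 to 0.269. Their part in the GIRK values was not tested. Pituitary markers stood out in 1 array, knockout replicate 3, at a mean of 6.20 against 4.56 and 4.15 in the other Gb5ko arrays and 4.13 to 4.72 in Gb5wt arrays. With knockout replicate 3 and wild-type replicate 6 left out, each highest in its group for the growth hormone gene Gh, Kcnj3 1455374_at differed by -0.28 and Kcnj9 1450712_at by 0.10. Without wild-type replicate 6 alone, Kcnj9 1450712_at differed by 0.14, and without knockout replicate 3 alone by 0.44. The part of pituitary RNA in these values was not tested.

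For each subunit, the genes whose values followed it most closely over the 6 arrays were sought among 11674 genes with a brightest probe set above the median level. For Kcnj3 they were Pdik1l, Tmem196, Kat2b and Uhrf2, with Pearson correlations from 0.989 to 0.995, and 494 genes exceeded 0.9. For Kcnj5 they were Smg9, Cers4, Nudt2 and Prr5, from 0.991 to 0.998, and 694 genes exceeded 0.9. For Kcnj6 they were Pdcd10, Tmem60, Rab18 and Ppp3r1, from 0.987 to 0.998, and 53 genes exceeded 0.9. For Kcnj9 they were Ccdc66, Rbm15b, Lyplal1 and Sorcs1, from 0.984 to 0.991, and 60 genes exceeded 0.9. These genes were picked as the highest of 11674 over 6 arrays. How many unrelated genes would exceed 0.9 was not computed. The probe sets of Kcnj5 and Kcnj6 used here were themselves below the median level. The arrays are of both genotypes, and these values describe these 6 arrays only.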

How the data were processed

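The authors deposited 1 table of log2 values with a row per probe set and a column per array, made with RMA and Partek per the submitters' processing notes, which give no versions. RMA corrects background, normalizes between arrays and summarizes probes, and dim probe sets keep low values above 0. Per the labels' protocols, Trizol RNA (6 ug) was biotin-labelled. No further normalization was applied. Array medians ran from 5.81 to 5.85, and the number of arrays limits the precision, with a median standard error of 0.123. Control probe sets, 64 of 45101, were left out. Genes came from the platform annotation, checked by Entrez identifier against RefSeq (GRCm38.p6, names and order only). The genotypes were compared in limma 3.58.1 (lmFit, eBayes; R 4.3.3), two-sided, with Benjamini-Hochberg adjustment over 45037 probe sets, tested first on simulated data. Single values were compared by exact permutation in scipy 1.17.1. A gene was read through its brightest 1-gene probe set. Named are all GIRK probe sets, Gnb5, up to 4 genes of smallest p per list and the 4 genes most like each subunit, with exceptions stated. Alternatives covered filters, normalization, eBayes settings, array weights, a covariate and left-out arrays. The subunits and lists were chosen with earlier results of these data known.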

Additional observations from a re-analysis of the deposited data

How the results depend on the processing

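No paired analysis was possible because replicate numbers differ between the genotypes (1 to 3 and 4 to 6). The number of GIRK probe sets called was 0 under each alternative run, and the smallest adjusted p among them was 0.174. Of 194 recomputed probe set differences all stayed uncalled, and 13 values from 7 probe sets changed sign, with differences of at most 0.17 in size over all arrays. Against 12 called probe sets in all, the count was 20 with a mean level of at least 5, 23 with trend and robust eBayes, 27 with array weights and 4 when each gene kept only its brightest probe set and fewer tests were made, and the cause of the others was not tested. With 1 array left out it was 9 to 12. Read by the brightest probe set in place of all, the gene differences were -0.28 for Kcnj3, -0.16 for Kcnj6 and 0.49 for Kcnj9, against -0.04, -0.03 and 0.21. Read by the mean over probe sets, Kcnj3 minus Kcnj5 was -0.18 and Kcnj3 minus Kcnj9 was -0.26, and the groups of both pairs then overlapped. With 1 array left out, the mean over Kcnj6 probe sets turned to 0.035 without wild-type replicate 4 and to 0.0027 without knockout replicate 1, and Kcnj5 minus Kcnj9 to 0.065 without wild-type replicate 6. Pathway calls stayed at 1, Gnb5. Kcnj5 and Kcnj6 were dim, and the filter at the median level left 4 GIRK probe sets, none of these 2 genes.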
